A study of Saccharomyces cerevisiae with 6 samples.

Results

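The transfer RNA genes of Saccharomyces cerevisiae were examined in total RNA-seq data from cells grown on a poor or a preferred nitrogen source. The 299 rows that the deposited table types as tRNA were taken, of 11987 rows in all. They comprised 275 genes on the 16 nuclear chromosomes and 24 genes on the mitochondrial genome. Names follow the table: tP(UGG)N1 is a proline tRNA gene (P) with the anticodon UGG on chromosome 14 (N), and the letter Q after the anticodon marks the mitochondrial genome. Start, end and strand of all 299 genes were the same in the RefSeq annotation of build R64.

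RNA came from 3 groups of 2 biological replicates. The dal80-Pro cells (strain FV080, MATa, dal80::kanMX) and the WT-Pro cells (strain 25T0b, MATα) were grown with proline, and the WT-Glu cells (25T0b) with glutamine as nitrogen source. Both strains carry ura3, his3 and trp1 mutations. Mating type, and not DAL80 alone, separates the strains. The comparison of WT-Pro with WT-Glu asks how the nitrogen source changes the transcriptome, and that of dal80-Pro with WT-Pro what the GATA repressor Dal80 contributes in proline.

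RNA polymerase III transcribes nuclear tRNA genes from promoter elements that lie inside the gene. The precursor loses its 5′ leader to RNase P and its 3′ trailer to exo- and endonucleases, some precursors lose an intron next to the anticodon to the Sen endonuclease and the Trl1 ligase, and most tRNAs exist as several genes with the same mature sequence. Mature tRNAs are short, folded and heavily modified, which makes them poor templates for reverse transcription, so a standard total RNA library captures few of them. Mitochondrial tRNAs are cut out of long transcripts made by the mitochondrial RNA polymerase. Proline is a poor nitrogen source and glutamine a preferred one. Maf1 is a repressor of RNA polymerase III that answers to nutrients.

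Among nuclear genes 60 had an annotated intron, and the 275 genes encoded 56 distinct mature sequences. A window of 50 bases, the length of 1 read, was unique in the genome for at least 1 position inside the gene in 33 nuclear genes and in all 24 mitochondrial genes, and for no position in the other 242 nuclear genes. Reads of these 242 genes, counted only where they mapped uniquely, therefore had to reach into flanking bases or be placed by their mate. The genes on which the results below turn are shown 5′ to 3′ on the coding strand, as RNA polymerase III would read them, from the RefSeq sequence of build R64, which is that of strain S288C and not of the strains used here. Capitals mark the intron, or the anticodon where a gene has no intron. The alanine gene tA(AGC)P (chr16:856902-856974, plus strand) is shown because it changed most without DAL80. The proline genes tP(UGG)N1 (chr14:547094-547196, plus strand) and tP(UGG)M (chr13:196068-196170, minus strand) are shown because both fell in dal80-Pro, and tP(UGG)O2 (chr15:464450-464551, plus strand) because it encodes the same mature tRNA and had the opposite sign. The leucine gene tL(UAG)L1 (chr12:592519-592619, minus strand) also fell in dal80-Pro, and the isoleucine gene tI(UAU)L (chr12:605300-605432, minus strand) has a long intron and fell in WT-Pro. The glutamine genes tQ(CUG)M (chr13:808246-808317, minus strand, CDC65), the only nuclear gene with its anticodon, and tQ(UUG)L (chr12:448650-448721, minus strand) are shown to set the 2 glutamine anticodons side by side.
tA(AGC)P: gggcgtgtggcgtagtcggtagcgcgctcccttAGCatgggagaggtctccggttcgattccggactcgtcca
tP(UGG)N1: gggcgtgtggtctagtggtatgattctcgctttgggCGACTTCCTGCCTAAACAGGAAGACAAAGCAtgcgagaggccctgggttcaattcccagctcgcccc
tP(UGG)M: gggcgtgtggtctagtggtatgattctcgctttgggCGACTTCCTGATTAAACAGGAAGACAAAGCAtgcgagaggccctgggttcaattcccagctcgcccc
tP(UGG)O2: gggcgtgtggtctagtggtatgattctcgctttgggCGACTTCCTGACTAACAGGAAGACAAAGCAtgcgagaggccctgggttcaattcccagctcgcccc
tL(UAG)L1: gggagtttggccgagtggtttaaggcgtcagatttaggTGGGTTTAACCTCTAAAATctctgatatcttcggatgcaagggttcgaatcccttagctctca
tI(UAU)L: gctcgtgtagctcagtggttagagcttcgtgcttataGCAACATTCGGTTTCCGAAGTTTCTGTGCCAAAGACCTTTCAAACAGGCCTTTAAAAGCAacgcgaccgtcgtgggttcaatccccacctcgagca
tQ(CUG)M: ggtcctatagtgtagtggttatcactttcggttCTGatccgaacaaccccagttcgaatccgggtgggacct
tQ(UUG)L: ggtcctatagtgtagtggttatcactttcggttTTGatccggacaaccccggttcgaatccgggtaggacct

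The proline genes tP(UGG)N1, tP(UGG)M and tP(UGG)O2 had the same 72 bases outside the intron. Their introns measured 31, 31 and 30 bases, and those of tP(UGG)N1 and tP(UGG)M differed at 2 positions. The intron of tI(UAU)L measured 60 bases. The glutamine genes tQ(CUG)M and tQ(UUG)L differed at 4 positions. No window of 50 bases inside tA(AGC)P, tP(UGG)N1 or tP(UGG)M was unique, whereas 47 windows inside tP(UGG)O2 and 42 inside tL(UAG)L1 were.

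Few reads fell on tRNA genes. ORF reads numbered 14782341 and 19968312 in dal80-Pro, 12550777 and 12304015 in WT-Pro and 16519210 and 17079133 in WT-Glu. The tRNA rows together held 5904 and 10792 reads in dal80-Pro, 7052 and 5271 in WT-Pro and 7645 and 10038 in WT-Glu, or 3.99 to 5.88 reads per 10000 ORF reads. Between 13 and 26 rows a library had no read, which allows up to 3 reads by counting error alone, and 109 to 178 of the 299 rows had fewer than 10 reads. The median row held 68 reads over all 6 libraries, and only tM(CAU)Q2 had none. SCR1, the RNA of the signal recognition particle and another product of RNA polymerase III, held 874842 to 1875603 reads a library. The deletion was visible in DAL80 itself, at 6.15 and 2.75 scaled reads in dal80-Pro against 3537 and 2729 in WT-Pro. The 4 MATα marker genes summed to 1054 and 1229 reads in dal80-Pro, 106277 and 76666 in WT-Pro and 77866 and 68897 in WT-Glu. The 5 MATa markers summed to 8814 and 12406 reads in dal80-Pro, 3163 and 2684 in WT-Pro and 185 and 235 in WT-Glu, with no marker of either list at 0. Genes of a-cells thus differed between WT-Pro and WT-Glu too, although both are labelled as the MATα strain 25T0b, and their part in the comparisons below was not tested. In bulk RNA, fewer cells that express a gene and less of its RNA per cell cannot be told apart.

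Values are given as scaled reads, which are the reads of a library multiplied by the factor that the authors applied to it (0.551 to 1), and as densities, which are scaled reads per base. The study's methods name the total of ORF reads as the base of the scaling, but the deposited factors do not follow those totals. Values with ORF totals are therefore given beside most tRNA results that depend on this. Log2 fold changes were computed with limma on log2(scaled reads + 1), so those of low rows are understated. Rows were called higher or lower where the p adjusted by Benjamini and Hochberg over all 5922 rows tested did not exceed 0.01 and the log2 fold change was 1 or more in either direction. Of the 299 tRNA rows, 185 had enough reads to be tested, 178 of them nuclear and 7 mitochondrial.

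By density averaged over the 6 libraries, nuclear tRNA genes had a median of 0.122 scaled reads per base, against 0.37 for ORFs, and mitochondrial tRNA genes a median of 0.0261. The densest nuclear genes were tH(GUG)G2 at 4.76 scaled reads per base, followed by tQ(CUG)M at 3.72, then tG(GCC)D2 at 2.93, tE(UUC)L at 2.72 and tA(AGC)P at 1.37. The last of these stood there through WT-Pro, with 0.0842 and 0.0603 scaled reads per base in dal80-Pro, 4.51 and 2.78 in WT-Pro and 0.274 and 0.512 in WT-Glu. Reads were unevenly spread within an anticodon family. The gene tH(GUG)G2 held 75.8% of the reads on 7 histidine genes over the 6 libraries. The share of tA(AGC)P among 11 alanine genes with 1 mature sequence was 77.3% over the 6 libraries and differed between groups, as given with that gene. By amino acid, the 16 glutamate genes held 13.6% of nuclear tRNA reads and the 4 cysteine genes 0.27%. The 5 anticodon families with the most reads held 36.1% of all tRNA reads, and the Pearson correlation between gene number and reads over 42 nuclear families was 0.48, a description over families that share libraries. In nuclear genes with a unique window the median was 185 reads over the 6 libraries, against 65 in those without.

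With the deposited scaling, most nuclear tRNA genes lay below WT-Glu in WT-Pro. Of the 185 tested rows, 3 were called higher and 49 lower, against 12.4% of all 5922 rows called higher and 16.5% lower. The median log2 fold change was -1.07 over tRNA rows and 0.00047 over all rows, and 146 of 185 tRNA rows were negative. The scaling mattered for these counts. With libraries divided by the total of ORF reads, which moved the median of all rows to 0.91, the tRNA median was -0.23 and the calls became 19 higher and 21 lower. With TMM factors, another scaling of libraries, the tRNA median was -0.92, with 4 calls higher and 44 lower. A change of scaling shifts all rows nearly alike, so the distance of the tRNA median from that of all rows, -1.07 with the deposited factors and -1.14 with ORF totals, says nothing on which scaling holds. Without WT-Pro replicate 2 the lower calls numbered 19, without WT-Glu replicate 2 they numbered 26 and without WT-Pro replicate 1 they numbered 31.

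Summed over the nuclear genes, scaled reads were 4705 and 3735 in WT-Pro against 7552 and 9800 in WT-Glu, a mean log2 difference of -1.04. The groups did not overlap, and the exact two-sided permutation test over libraries gave p = 0.333, the smallest that 2 libraries against 2 allow. With ORF totals the difference was -0.12, and per 10000 ORF reads there were 5.47 and 4.15 nuclear tRNA reads in WT-Pro against 4.57 and 5.84 in WT-Glu, which overlapped. The lower nuclear sum in WT-Pro therefore depended on the scaling, and relative to ORF totals the groups overlapped. Replicates also differed. In WT-Glu, replicate 2 was above replicate 1 in 142 of 185 tested tRNA rows with a median log2 difference of 0.40, where the ORF median was -0.02, and in dal80-Pro in 153 of 185 rows with a median of 0.56.

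**Figure D1:**
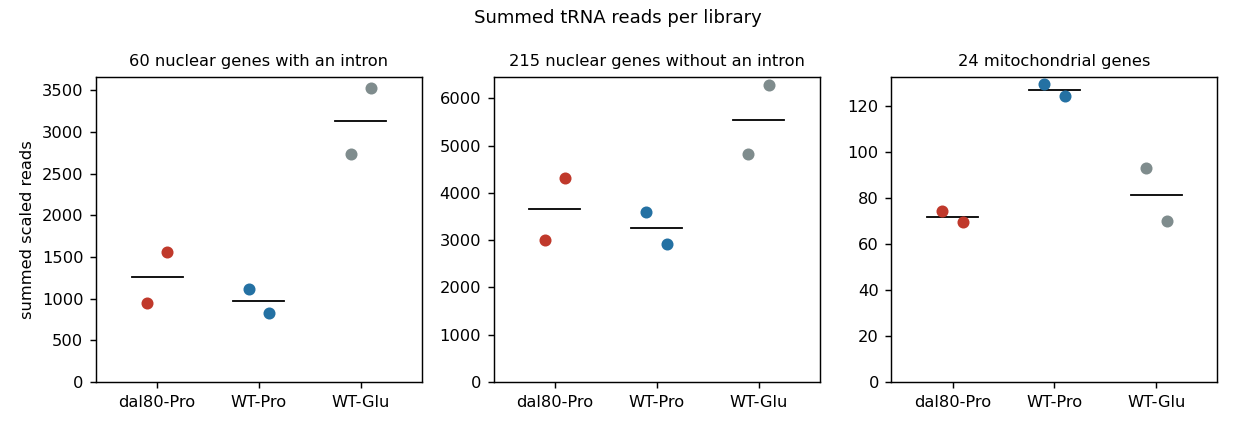
Summed scaled reads of nuclear genes with an intron, nuclear genes without one and mitochondrial genes (vertical axes from 0, different scales) in each library of dal80-Pro, WT-Pro and WT-Glu; points are libraries and lines group means. Genes with an intron summed to 1109 and 822 scaled reads in WT-Pro against 2736 and 3521 in WT-Glu, and mitochondrial genes stood highest in WT-Pro.

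Nuclear genes with and without an intron were counted separately, and the difference between the classes was not tested. Of 53 tested genes with an intron, 29 were called and all 29 were lower, with a median log2 fold change of -1.98. Of 125 tested genes without an intron, 3 were higher and 20 lower, with a median of -0.81. Over all 5922 rows, 12.4% were called higher and 16.5% lower. The class counts hold under the deposited scaling, and with ORF totals 21 of the 49 lower calls over all tRNA rows remained. At an unadjusted p under 0.05 in the limma fit, 48 of the 53 and 65 of the 125 passed. Genes with an intron supplied 23.6% and 22% of nuclear tRNA reads in WT-Pro against 36.2% and 35.9% in WT-Glu, a share that no scaling of libraries can change. The dal80-Pro libraries, at 24.1% and 26.6%, lay near WT-Pro. Among intron genes the median log2 fold change was -2.43 over 17 tested genes whose sequence offered a unique window and -1.76 over 36 genes that offered none.

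Introns are present in all 6 tryptophan genes, all 10 phenylalanine genes, all 8 tyrosine genes and all 10 proline genes with the anticodon UGG. For tryptophan, 5 of 6 tested genes were called lower, with a median log2 fold change of -2.64. For phenylalanine 4 of 7, for leucine 8 of 16, for serine 6 of 14 and for proline 8 of 12 were called lower. Values were negative, called or not, in 6 tryptophan, 7 phenylalanine, 13 leucine, 13 serine and 10 proline genes. With ORF totals each of these amino acids, tryptophan included, had fewer lower calls. Of the others, 0 of 10 tested threonine genes, 0 of 10 valine genes and 0 of 5 tyrosine genes were called in either direction. Their medians were -1.08, -0.85 and -1.59. Over all 5922 rows, 12.4% were called higher and 16.5% lower, and differences between amino acids were not tested. At an unadjusted p under 0.05, 6 threonine, 6 valine and 5 tyrosine genes passed in the limma fit.

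**Figure D2:**
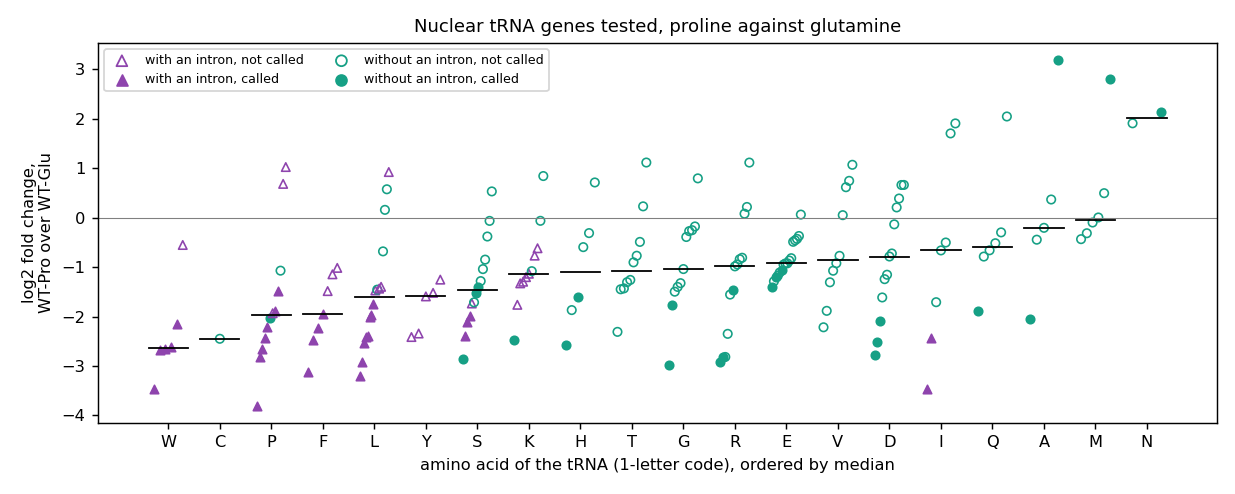
Log2 fold change of WT-Pro over WT-Glu for each tested nuclear tRNA gene, by amino acid and ordered by the median (black lines); triangles are genes with an intron, circles genes without, and filled symbols were called. Tryptophan had the lowest median, -2.64, and the called genes above 0 were 1 each for alanine, methionine and asparagine.

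Families were then summed by anticodon, which joined the uniquely mapped reads of their genes. Reads that fit several genes equally well were not kept, so the sums do not include them. When each of the 65 anticodon families was entered as 1 row, 48 could be tested, and 1 was higher and 17 lower, where 12.7% of the 5785 rows in that fit were called higher and 16.4% lower. The tI(UAU) family of 2 genes fell the most, to 88.4 and 57.9 scaled reads in WT-Pro, against 474 and 699 in WT-Glu (log2 fold change -2.99, SE 0.32, adjusted p = 0.000196). Next came the serine family tS(GCU) at -2.20, the leucine family tL(CAA) at -2.18 and the serine family tS(CGA) at -2.10. These 4 families were called under all 16 alternative settings. The proline family tP(AGG) had -1.97, the histidine family tH(GUG) -1.92, the glutamine family tQ(CUG) -1.88, the phenylalanine family tF(GAA) -1.86, the tryptophan family tW(CCA) -1.76, the tyrosine family tY(GUA) -1.73, the glycine family tG(CCC) -1.72 and the valine family tV(CAC) -1.63, and all 8 lost the call when WT-Pro replicate 2 was left out. The arginine family tR(CCG) at -1.46, the proline family tP(UGG) at -1.16, the valine family tV(UAC) at -1.14, the serine family tS(AGA) at -1.09 and the glutamate family tE(CUC) at -1.02 also fell, and each lost the call when WT-Pro replicate 1 or WT-Pro replicate 2 was left out. All 13 of these families lost the call with ORF totals. The only family called higher in WT-Pro was tA(AGC), which averaged 1.98 on the log2 scale above WT-Glu. This value came from the gene tA(AGC)P. Without it, the family summed to 39.1 and 22.7 scaled reads in WT-Pro against 46 and 42.3 in WT-Glu.

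**Figure D3:**
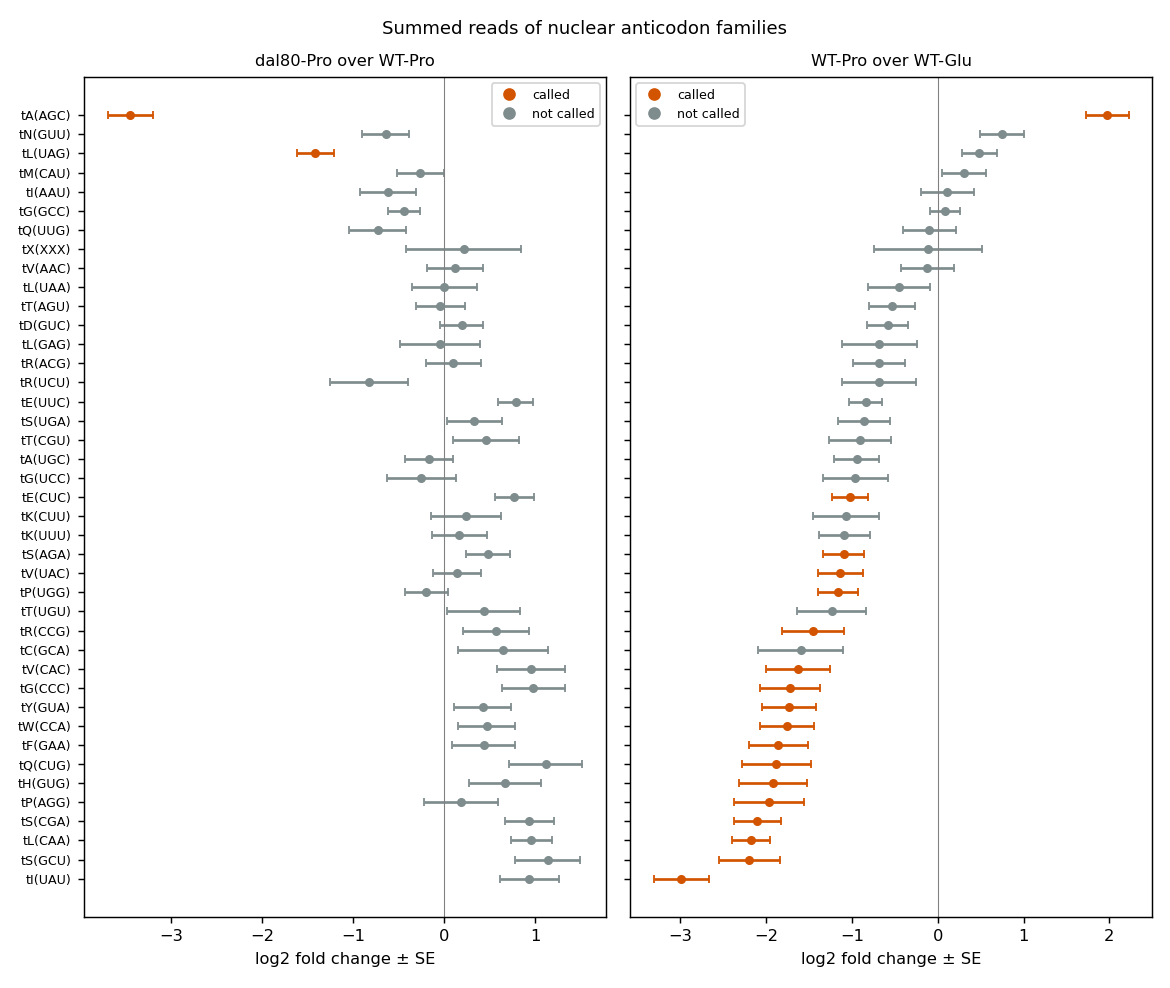
Log2 fold change ± SE of the summed reads of nuclear anticodon families, dal80-Pro over WT-Pro on the left and WT-Pro over WT-Glu on the right, ordered by the right panel; orange points were called. The tA(AGC) family, most of whose WT-Pro reads lay on the gene tA(AGC)P, was highest on the right at 1.98 and lowest on the left at -3.45. Both panels share the WT-Pro libraries.

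Among single genes the most negative fitted value was that of tP(UGG)O2, which had 1 read in each WT-Pro library, or 0.686 and 0.732 scaled reads, against 23 and 22.6 scaled reads in WT-Glu (log2 fold change -3.80, SE 0.47, adjusted p = 0.00038). With so few reads the value depended on the setting, at -2.28 with a pseudocount of 5 and -4.97 with DESeq2, and its rank with it. The gene overlaps the short ORF YOR072W-B on the same strand, which had 1 and 0 reads in WT-Pro against 23 and 28 in WT-Glu, and the file does not say which reads were counted for both. The intron gene tI(UAU)L had 35.6 and 27.1 scaled reads in WT-Pro against 291 and 430 in WT-Glu (log2 fold change -3.47, SE 0.28, adjusted p = 6.65e-05), and its value stayed between -3.75 and -2.56 over the alternatives. Its lowest WT-Glu library lay above its highest WT-Pro library by more than the spread within either group.

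The tryptophan gene tW(CCA)J had 3.43 and 2.2 scaled reads in WT-Pro against 29 and 56 in WT-Glu (log2 fold change -3.46, SE 0.49). The leucine gene tL(CAA)G1 had 4.8 and 7.32 scaled reads in WT-Pro against 61 and 65.9 in WT-Glu (-3.21, SE 0.45), and the leucine gene tL(CAA)A 3.43 and 5.13 against 42 and 35.4 (-2.93, SE 0.35). Both leucine genes carry an intron. The counts are low, and called rows were named only where the groups did not overlap, so the separation adds no support.

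The glycine gene tG(GCC)F2 had 7.54 and 8.79 scaled reads in WT-Pro against 68 and 73.7 in WT-Glu (log2 fold change -2.97, SE 0.31, adjusted p = 0.00017) and has no intron. The densest gene of the same mature sequence, tG(GCC)D2, had 313 and 250 scaled reads in WT-Pro against 142 and 182 in WT-Glu (0.80, SE 0.18, adjusted p = 0.0053), which is below the fold required. These genes encode the same mature tRNA and had values of opposite sign. With ORF totals tG(GCC)D2 was called higher.

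The remaining large falls rested on few reads. They were those of the phenylalanine gene tF(GAA)M (-3.11), the arginine genes tR(UCU)D (-2.93) and tR(UCU)J1 (-2.82) and the serine gene tS(AGA)G (-2.86). These had 1.37 to 8.23 scaled reads in WT-Pro against 14 to 51.1 in WT-Glu, and each lost its call without WT-Glu replicate 2. The call of tR(UCU)D was lost under 6 of 15 alternatives, ORF totals among them. The most abundant tRNA row, tH(GUG)G2, had 156 and 72.5 scaled reads in WT-Pro against 634 and 651 in WT-Glu (-2.58, SE 0.45, adjusted p = 0.0018), and lost its call without WT-Pro replicate 2. At the edge of the call stood the arginine gene tR(CCG)L, just inside with -1.46 and an adjusted p of 0.00958, and the arginine gene tR(UCU)J2, just outside with -2.35 and an adjusted p of 0.0103.

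The 3 genes called higher in WT-Pro lie on chromosome 16 and have no intron. The alanine gene tA(AGC)P had 329 and 203 scaled reads in WT-Pro against 20 and 37.4 in WT-Glu, or 266 ± 89.2 against 28.7 ± 12.3 (SD, n = 2, log2 fold change 3.19, SE 0.37, limma adjusted p = 0.00028). The asparagine gene tN(GUU)P had 76.1 and 66.6 scaled reads in WT-Pro against 15 and 15.7 in WT-Glu (2.14, SE 0.23, adjusted p = 0.0002). Both stayed called under all 16 alternatives.

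The initiator methionine gene IMT2, tM(CAU)P, had 27.4 and 24.9 scaled reads in WT-Pro against 4 and 1.97 in WT-Glu (2.82, SE 0.45, adjusted p = 0.0012), and lost its call without either WT-Pro library. The initiator tRNA starts translation at AUG and is encoded by 4 named genes. The other 3, IMT1 on tM(CAU)O1, IMT3 on tM(CAU)J3 and IMT4 on tM(CAU)E, held 36, 12 and 48 reads over the 6 libraries and were too low to test.

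Proline and glutamine tRNAs were looked at because these amino acids were the nitrogen sources. Of the 12 nuclear proline genes, all were tested, and the 8 that were called were lower in WT-Pro. The largest falls after tP(UGG)O2 were those of tP(UGG)F with 6.17 and 5.86 scaled reads in WT-Pro against 35 and 66.9 in WT-Glu (-2.82), and tP(UGG)O3 with 16.5 and 9.52 against 91 and 78.7 (-2.66). The genes tP(UGG)L at -2.44, tP(UGG)O1 at -2.22, tP(AGG)C at -2.02, tP(UGG)N2 at -1.89 and tP(UGG)H at -1.49 also fell. Of these, tP(UGG)L, tP(AGG)C, tP(UGG)N2 and tP(UGG)H lost the call with ORF totals, and also without WT-Pro replicate 2. The gene tP(UGG)O1 overlaps the short ORF YOL013W-A on the same strand, which had -2.02, and reads counted for both were not separated. The genes tP(UGG)A at -1.93 with an adjusted p of 0.0199 and tP(AGG)N at -1.07 with an adjusted p of 0.178 were not called.

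The 2 remaining proline genes had positive values. The gene tP(UGG)N1 had 151 and 88.6 scaled reads in WT-Pro against 62 and 51.1 in WT-Glu (1.03, adjusted p = 0.0267), and tP(UGG)M 50.7 and 45.4 against 26 and 33.4 (0.68, adjusted p = 0.0613). With ORF totals both were called higher. Together they held 202 and 134 scaled reads in WT-Pro against 88 and 84.6 in WT-Glu, while the other 8 tP(UGG) genes held 101 and 103 against 448 and 592. The family sum thus joined genes with values of opposite sign, and 9 of the 10 encode the same mature tRNA.

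Of 10 nuclear glutamine genes 6 were tested. The gene tQ(CUG)M fell to 130 and 96.7 scaled reads in WT-Pro, against 395 and 437 in WT-Glu (-1.88, SE 0.40, adjusted p = 0.0048). Its call was lost with ORF totals, with the replicate block and without either WT-Pro library. The gene tQ(UUG)L had 26.7 and 19 scaled reads in WT-Pro against 2 and 9.83 in WT-Glu (2.05, adjusted p = 0.0328). The other 4 tested genes for the anticodon UUG, tQ(UUG)D3, tQ(UUG)H, tQ(UUG)B and tQ(UUG)C, had values of -0.79 to -0.30 and none was called. The genes tQ(UUG)D1, tQ(UUG)D2, tQ(UUG)E1 and tQ(UUG)E2 held 27 to 34 reads over the 6 libraries and were not tested.

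Few tRNA rows were called in dal80-Pro against WT-Pro. In dal80-Pro, 1 of 185 rows was higher and 4 lower than in WT-Pro, where 3.43% of all rows were called higher and 4.24% lower. The median log2 fold change was 0.39 over tRNA rows and 0.06 over all rows, and 54 tRNA rows had an unadjusted p under 0.05 in the limma fit. Nuclear sums were 3957 and 5874 scaled reads in dal80-Pro against 4705 and 3735 in WT-Pro. These overlapped (mean log2 difference 0.20, exact two-sided permutation p = 0.667). The strains differ in mating type, and that difference and the deletion cannot be told apart here.

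The alanine gene tA(AGC)P showed the largest change of any tRNA row. It fell to 6.15 and 4.41 scaled reads in dal80-Pro, against 329 and 203 in WT-Pro, or 5.28 ± 1.23 against 266 ± 89.2 (SD, n = 2, log2 fold change -5.38, SE 0.37, limma adjusted p = 9.04e-05). Every library of dal80-Pro was also below both WT-Glu libraries, at 20 and 37.4. The value ranged from -5.73 to -4.69 over 16 alternatives, all of which kept the call. In WT-Pro tA(AGC)P took 89.4% and 89.9% of the reads on the 11 tA(AGC) genes, against 25% and 16.7% in dal80-Pro and 30.3% and 46.9% in WT-Glu. The other 10 genes of this family summed to 18.4 and 22 scaled reads in dal80-Pro, 39.1 and 22.7 in WT-Pro and 46 and 42.3 in WT-Glu.

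The reference places a Ty3 long terminal repeat 16 bases from tA(AGC)P and the ORF KRE6, a glucan synthesis gene, 608 bases downstream on the same strand. KRE6 had log2 fold changes of -0.71 in WT-Pro over WT-Glu and -0.62 in dal80-Pro over WT-Pro, neither of them called. As no window inside tA(AGC)P is unique, its reads touched flanking bases or were placed by their mate, and the file does not separate precursor, mature and read-through RNA. The sequence around this gene in 25T0b and FV080 was not analysed here.

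**Figure D4:**
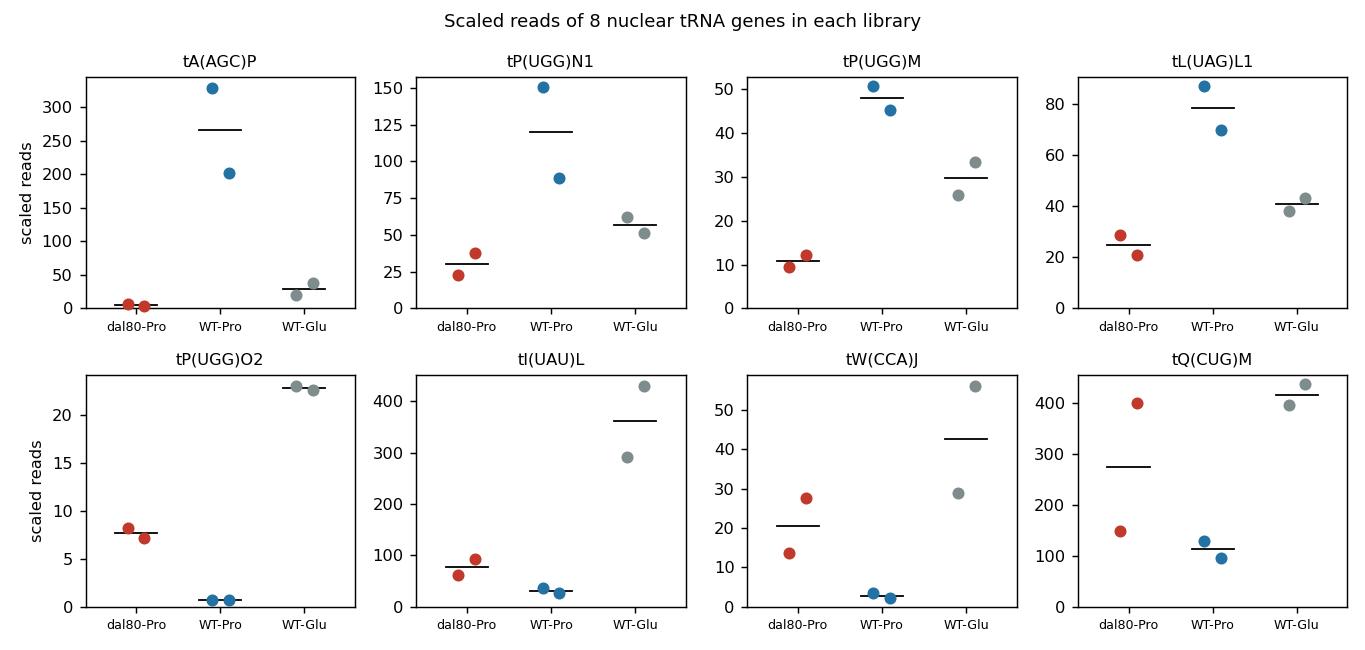
Scaled reads of 8 nuclear tRNA genes (vertical axes from 0, different scales) in the 2 libraries of dal80-Pro, WT-Pro and WT-Glu; points are libraries and lines group means. The upper 4 genes, called lower in dal80-Pro, had their highest values in WT-Pro, while the lower 4, called lower in WT-Pro than in WT-Glu, had their lowest values there.

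The other 3 genes called lower in dal80-Pro carry an intron. The proline gene tP(UGG)M had 9.56 and 12.1 scaled reads in dal80-Pro against 50.7 and 45.4 in WT-Pro (-2.06, SE 0.28, adjusted p = 0.002). The proline gene tP(UGG)N1 had 22.5 and 37.4 scaled reads in dal80-Pro against 151 and 88.6 in WT-Pro (-1.96, SE 0.33, adjusted p = 0.00505). The leucine gene tL(UAG)L1 had 28.7 and 20.9 scaled reads in dal80-Pro against 87.1 and 69.6 in WT-Pro (-1.63, SE 0.25, adjusted p = 0.0033). No library of dal80-Pro reached a WT-Pro library in these genes, which the rule for naming called rows required. Each call was lost when any of the 4 libraries compared was left out, which leaves 1 library on that side.

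ORFs on the same strand that overlap or follow these genes were looked at next. The gene tP(UGG)N1 overlaps the short ORF YNL042W-B, which was lower in dal80-Pro (-2.49) and higher in WT-Pro than in WT-Glu (1.57), and BOP3 lies 903 bases downstream. BOP3 had log2 fold changes of -1.80 in dal80-Pro over WT-Pro and 2.32 in WT-Pro over WT-Glu, both called. The gene ADY4, which encodes a spindle pole body component of meiosis, lies 475 bases downstream of tL(UAG)L1 and had -0.99 in dal80-Pro over WT-Pro, which was not called, and 1.38 in WT-Pro over WT-Glu, which was. The gene VPS71, a subunit of a chromatin remodelling complex, 312 bases downstream of tP(UGG)M, had -0.07 in dal80-Pro over WT-Pro. The part of reads from neighbouring transcripts in these tRNA rows was not tested.

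The remaining tP(UGG) genes had positive values in dal80-Pro, none of them called, from 0.24 for tP(UGG)H to 2.34 for tP(UGG)O2, with 8.19 and 7.16 scaled reads in dal80-Pro against 0.686 and 0.732 in WT-Pro (adjusted p = 0.0106). The ORF that overlaps tP(UGG)O2, YOR072W-B, was called higher, with 12 and 13 reads in dal80-Pro against 1 and 0 in WT-Pro (2.74, adjusted p = 0.00886). The 2 comparisons share the WT-Pro libraries, so opposite signs in them are no independent observation.

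**Figure D5:**
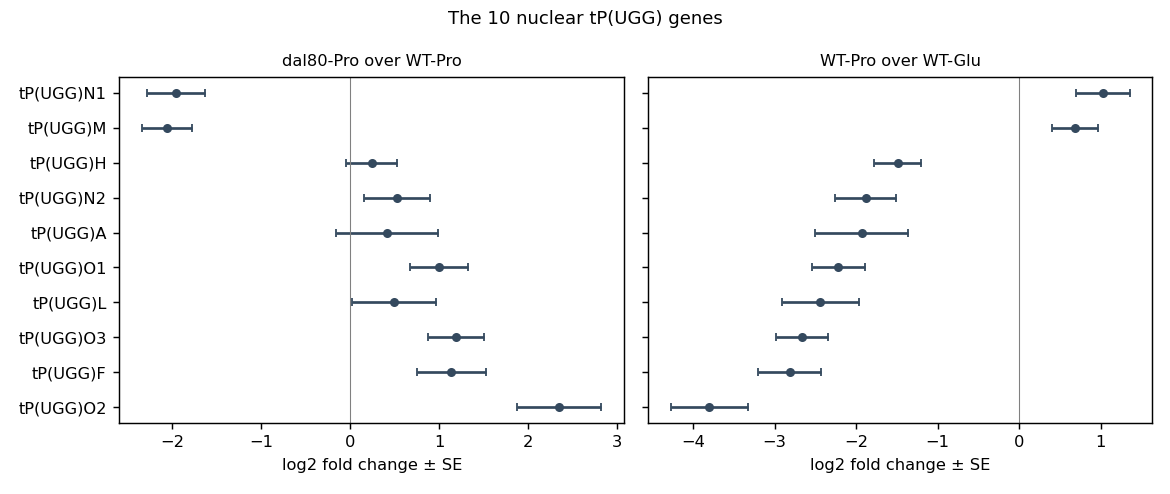
Log2 fold change ± SE of the 10 nuclear tP(UGG) genes, dal80-Pro over WT-Pro on the left and WT-Pro over WT-Glu on the right, ordered by the right panel. The genes tP(UGG)N1 and tP(UGG)M lay apart from the other 8 in both panels, at -1.96 and -2.06 on the left; both panels share the WT-Pro libraries.

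The only gene called higher in dal80-Pro was the glutamate gene tE(UUC)G2, at 77.8 and 82.6 scaled reads in dal80-Pro against 24 and 38.8 in WT-Pro (1.36, SE 0.27, adjusted p = 0.0093). It stood just inside the call and lost it under 9 of 16 alternatives. All 16 tested glutamate genes had positive values, with a median of 0.68, and their summed anticodon families tE(UUC) and tE(CUC) were not called. Just outside the call was tW(CCA)J, with 13.7 and 27.5 scaled reads in dal80-Pro against 3.43 and 2.2 in WT-Pro (2.44, SE 0.49, adjusted p = 0.01002), and it was called under 8 of 16 alternatives. Without WT-Glu replicate 1 or WT-Glu replicate 2, libraries outside this comparison that enter the shared spread, 4 and 5 rows were higher, and without WT-Pro replicate 1, without WT-Pro replicate 2 or without dal80-Pro replicate 2 none was.

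Of the 48 anticodon families tested, 2 were called in dal80-Pro and both were lower, where 3.49% of rows in that fit were called higher and 4.3% lower. The tA(AGC) family had 24.6 and 26.4 scaled reads in dal80-Pro against 368 and 226 in WT-Pro (-3.45, SE 0.25, adjusted p = 0.000112), and the tL(UAG) family 30.7 and 29.7 against 93.2 and 72.5 (-1.41, SE 0.20, adjusted p = 0.0026). The tL(UAG) call was lost without either dal80-Pro library or without WT-Pro replicate 1. Over the 53 tested genes with an intron the median was 0.77, and over the 125 without it was 0.34.

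Mitochondrial tRNAs were barely covered. The 24 genes together held 109 and 126 reads in dal80-Pro, 189 and 170 in WT-Pro and 93 and 71 in WT-Glu, and 17 to 24 of them had fewer than 10 reads in a library. The 5 densest were the genes for lysine, tK(UUU)Q, at 0.2 scaled reads per base, serine, tS(UGA)Q2, at 0.16, leucine, tL(UAA)Q, at 0.14, proline, tP(UGG)Q, at 0.12, and glutamine, tQ(UUG)Q, at 0.09. The lowest of the 5 densest nuclear genes, tA(AGC)P, stood at 1.37.

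In the sum, mitochondrial tRNA genes had 130 and 124 scaled reads in WT-Pro against 93 and 69.8 in WT-Glu (mean log2 difference 0.66, or 1.58 with ORF totals), and 74.4 and 69.4 in dal80-Pro against those in WT-Pro (-0.82). Neither pair of groups overlapped, and the exact permutation p of 0.333 is the smallest possible in both. ORF reads of the mitochondrial genome were also highest in WT-Pro, with 443653 and 358966 scaled reads in dal80-Pro, 532732 and 472042 in WT-Pro and 262319 and 189796 in WT-Glu. Per 10000 mitochondrial ORF reads there were 1.68 and 1.93 tRNA reads in dal80-Pro, 2.43 and 2.64 in WT-Pro and 3.55 and 3.68 in WT-Glu. The tRNA genes were thus lower relative to mitochondrial mRNAs in WT-Pro than in WT-Glu, although their scaled sum was higher.

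No mitochondrial gene among the 7 tested was called in either comparison. At an unadjusted p under 0.05 in the limma fit, 1 passed in WT-Pro against WT-Glu and 2 in dal80-Pro against WT-Pro. With ORF totals the serine gene tS(UGA)Q2 and the leucine gene tL(UAA)Q were called higher in WT-Pro. The serine gene tS(UGA)Q2 had 6.83 and 9.91 scaled reads in dal80-Pro, 22.6 and 25.6 in WT-Pro and 12 and 7.87 in WT-Glu, with log2 fold changes of -1.44 (adjusted p = 0.0304) and 1.22 (adjusted p = 0.0258). The genes tP(UGG)Q and tQ(UUG)Q, whose amino acids match the nitrogen sources, had 1.00 and 0.78 in WT-Pro over WT-Glu with adjusted p of 0.135 and 0.217.

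The genes for the proteins that make and process tRNAs were counted by list, where 12.4% of all rows were higher and 16.5% lower in WT-Pro. All list values and calls are those of the deposited scaling. ORF totals moved the median log2 fold change of all rows to 0.91 in WT-Pro over WT-Glu, and list counts with them are not given. The lower and higher calls in these lists therefore depend on the scaling. Of 22 genes for RNA polymerase III, its factors TFIIIB and TFIIIC and Maf1, 1 was called in WT-Pro, and the list had a median log2 fold change of -0.05. It was RPO31, the largest subunit of the polymerase, which fell (-1.30, SE 0.14). Of 13 genes for end processing (median 0.13), 3 were higher, namely POP6 (2.03), POP1 (1.67) and POP7 (1.43), all protein subunits of RNase P and RNase MRP. RPR1, the RNA subunit of nuclear RNase P, was not called (-0.57, adjusted p = 0.0351). Of 6 splicing genes (median -0.29), SEN34, a catalytic subunit of the Sen endonuclease that cuts at the introns, was the only one called, at -1.38.

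Of 8 export genes (median -0.49) 1 was lower, GSP1, the Ran GTPase (-1.15). Of 50 modification genes (median -0.18) 1 was higher and 3 lower: KTI12 (1.00), and ELP2 (-1.57), IKI3 (-1.30) and ELP3 (-1.01), the last 3 being subunits of the Elongator complex that modifies the wobble uridine. Of 11 genes of the mitochondrial tRNA machinery (median 0.26), RPM2, the protein subunit of mitochondrial RNase P (1.01), and DSS1, a subunit of the mitochondrial RNA degradosome (1.12), were higher. RPM1, the mitochondrially encoded RNA of RNase P, was higher too, at 465 and 352 scaled reads in WT-Pro against 208 and 153 in WT-Glu (1.18, adjusted p = 0.0031).

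In dal80-Pro, SEN34 was higher (1.37, SE 0.18) and POP1 lower (-1.06, SE 0.17) than in WT-Pro, and no other gene of these 6 lists was called. Both changes had the sign opposite to that in WT-Pro against WT-Glu, in a comparison that shares the WT-Pro libraries. RPR1 had 0.32 and RPM1 -0.91 (adjusted p = 0.0247), neither called.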

How the data were processed

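From rRNA-depleted RNA the authors prepared stranded libraries, read 50 nt from both ends of each fragment and aligned them to build R64 (named in the processing notes) using TopHat, version 2.0.6 by the methods, keeping uniquely mapped reads. In the deposited table, the first WT-Glu library holds counts. In the signal columns of the other 5 libraries the authors multiplied reads by 1 factor per library, and their density signal is scaled reads per base. The methods name ORF totals as the base of the scaling, which the factors do not follow. Division by the factor gave whole reads for 100% of values within 1e-06, and alternatives used these reads. The authors' mean columns were not used, and 0 sample columns were unmapped.

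The limma (3.58.1, R 4.3.3) fit with a trend used all 6 libraries, filterByExpr, 1 term per group, and 3 residual and 4.49 prior degrees of freedom, over ORF, tRNA, snoRNA, ncRNA and snRNA rows without the 2-micron plasmid. A second fit replaced tRNA rows by anticodon sums. Only the fit of single rows was tested on simulated data, with changes placed in rows of at least 20 scaled reads on average. Alternatives were TMM factors, ORF totals, edgeR (4.0.16) and DESeq2 (1.42.0) on recovered reads, no filter, a mean of at least 20 scaled reads, pseudocounts of 0.5 and 5, a fit without ORFs, a replicate block and leaving out each library. Unique windows were counted over both strands of the R64 genome. Reads carry no molecular identifiers, so limits cover counting error only, and p-values measure the spread between the cultures sequenced.

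Named rows were up to 10 called rows per direction and comparison whose libraries do not overlap, the 5 densest nuclear and mitochondrial rows, all proline and glutamine rows, initiator genes, rows at the edge of the call, called families, up to 3 called members per protein list, RPR1 and RPM1. Members, lists and rules were chosen with earlier results of these data known. KRE6, BOP3, ADY4, VPS71, DAL80, the mating-type markers, YNL042W-B, YOR072W-B, YOL013W-A, SCR1, KTI12 and the genes of the closing section were chosen after their values were seen.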

Additional observations from a re-analysis of the deposited data

How the results depend on the processing

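Of 1904 values of named rows and families under an alternative, 1733 kept their side of the call, 130 lost it, 41 gained it and 0 turned round. In WT-Pro against WT-Glu, ORF totals gave 19 rows higher and 21 lower, edgeR 5 higher and a mean of at least 20 scaled reads 30 lower. Leaving out 1 library gave 2 to 4 rows higher, 19 to 51 lower and 6 to 21 families. In dal80-Pro against WT-Pro, rows higher numbered 2 with ORF totals, 6 with DESeq2, 4 with no filter, 0 with a mean of at least 20, 3 with a pseudocount of 0.5 and 0 to 5 without 1 library. Rows lower numbered 8 with ORF totals, 7 with DESeq2 and 1 to 6 without 1 library, and families 1 without ORFs in the fit and 1 to 2 without 1 library. With ORF totals the summed log2 ratio was -0.12 for nuclear and 1.58 for mitochondrial genes in WT-Pro against WT-Glu and -1.08 for mitochondrial genes in dal80-Pro against WT-Pro, where TMM gave -0.88. The cause of these shifts was not tested. With the replicate number as a block, 3 rows were higher and 38 lower in WT-Pro against WT-Glu, with 12 families, and 0 were higher and 3 lower in dal80-Pro against WT-Pro, with 2 families. Same-numbered libraries deviated from their group means with correlations of -0.04, 0.22 and -0.24 over 5922 rows. With 2 libraries a group, these values cannot show whether equal numbers mark a shared day or batch, which the labels do not say. Single genes were limited by depth, with fewer than 10 reads in 109 to 178 of 299 rows a library.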

Other observations

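Other RNAs made by RNA polymerase III were far better covered than tRNA genes. SNR6, the U6 spliceosomal RNA, had 11209 and 17620 scaled reads in dal80-Pro, 4736 and 3301 in WT-Pro and 7772 and 10932 in WT-Glu, with log2 fold changes of 1.83 in dal80-Pro over WT-Pro (adjusted p = 0.0039) and -1.22 in WT-Pro over WT-Glu (adjusted p = 0.0071), both called with limma. SNR52, a C/D box snoRNA, fell in WT-Pro (-1.25) and was not called in dal80-Pro (0.34). SCR1 was called in neither comparison (-0.60 in WT-Pro over WT-Glu and 0.54 in dal80-Pro over WT-Pro). Of the 77 snoRNA rows, 53 were lower and 0 higher in WT-Pro, where 16.5% of all rows were lower and 12.4% higher. Their median was -1.40 with the deposited scaling, and ORF totals moved the median of all rows to 0.91. In dal80-Pro 0 were called, where 3.43% of all rows were higher and 4.24% lower (median 0.29, with 14 at an unadjusted p under 0.05 in the limma fit and 77 tested).

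Over the 87 tested tRNA rows with an ORF on the same strand at most 1000 bases downstream, the Pearson correlation between the log2 fold change of the tRNA row and that of the ORF was 0.30 in dal80-Pro over WT-Pro and 0.12 in WT-Pro over WT-Glu, a description over genes measured in the same libraries. Within 500 bases downstream (59 rows) it was 0.21 and 0.05 in these comparisons. For ORFs upstream it was 0.09 and 0.12 within 1000 bases (33 rows) and -0.05 and 0.49 within 500 bases (14 rows), so it varied with side and distance. Directions were not always shared: downstream of tQ(CUG)M, URA10 had 1.89 in WT-Pro over WT-Glu, where tQ(CUG)M had -1.88. In the reference, 173 nuclear tRNA genes had a long terminal repeat within 500 bases. Of the 107 tested, 4 were called lower in dal80-Pro, where 4.24% of all rows were, and the median log2 fold change was 0.29 in these and 0.49 in the 71 tested genes farther away.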
